A study of Mus musculus with 2 samples.

Results

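The transcripts described here are those of the CD94 receptor and its NKG2 partners: Klrd1, which encodes CD94, Klrc1, which encodes NKG2A, and Klrc2, which encodes NKG2C. They are 3 of the 27998 genes counted. They were measured by droplet-based 3′ RNA sequencing of live CD45+ cells sorted from subcutaneous tumours, with 7AAD to leave out dead cells. The mice were CD94-deficient (CD94-KO, on C57BL/6J) or wild type (WT, C57BL/6J), all aged 6 to 8 weeks. There was 1 library for each genotype, each derived from 5 tumour-bearing mice, and the sources used here do not say how the mice were pooled, which tumour line they carried or which part of Klrd1 had been removed.

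CD94 is a C-type lectin-like protein that reaches the cell surface as a dimer with an NKG2 protein, mainly on NK cells and on activated or memory CD8 T cells. The dimer with NKG2A is inhibitory and recruits phosphatases such as SHP-1 through motifs in the tail of NKG2A, while NKG2C has no such motif and signals through the adaptor DAP12. Both bind Qa-1, a non-classical MHC class I molecule encoded by H2-T23, which presents peptides from the leader sequences of classical class I chains.

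With 1 library per genotype there was no replicate and hence no test, and a comparison describes this pair of libraries only. Levels are unique molecular identifiers (UMIs) summed over the cells of a type and scaled to that type's UMI total as CPM. Brackets give 95% intervals (exact Poisson for levels, conditional binomial for ratios, Clopper-Pearson for shares), which cover counting error only and no difference between animals or sorts. Because the protocol reads 3′ tags, a level is not affected by transcript length, but a kept 3′ end of a disrupted Klrd1 would still be counted, so its level can only test the label CD94-KO where the deletion includes it.

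After filtering, 4574 CD94-KO cells with 42210515 UMIs (median 7799 per cell) and 4388 WT cells with 36482364 UMIs (median 4768.5) were kept. Cell types were gated on raw UMIs of marker genes, none of them a member, and a cell in several gates went in none. This left 52.2% of CD94-KO and 32.1% of WT cells in exactly 1 gate. The NK gate (Ncr1 or Klrb1c, no Cd3) held 266 CD94-KO and 196 WT cells. The CD8 T gate held 45 and 76, the CD4 T gate 67 and 102, and the gate with both Cd3 and NK receptor UMIs 54 and 40 cells in the CD94-KO and WT libraries. Among dendritic cells, the cDC2 gate (Cd209a with Flt3 or Zbtb46) held 63 CD94-KO and 30 WT cells, the cDC1 gate 28 and 17, the mature DC gate (Ccr7 with Fscn1) 113 and 63, and the pDC gate (Siglech with Ccr9, Cox6a2 or Klk1) 29 and 37. Macrophages (C1q genes with Adgre1 or Csf1r) numbered 461 and 221, and monocytes 1090 and 491. Markers that the gates did not use were mostly highest in their own gate: 6 of 6 in both libraries for mature DC and pDC, and 6 of 6 in CD94-KO and 5 of 6 in WT for NK. The exceptions were the CD8 T gate, where 1 of 5 was highest in either library and the rest were shared with other T gates, and the cDC2 gate, where 2 of 6 were highest in CD94-KO and 3 of 6 in WT. Both libraries shared 8 cell barcodes.

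The 3 genes lie in the NK gene complex on chromosome 6 (GRCm38, GENCODE M21). Klrd1 (ENSMUSG00000030165) spans chr6:129591782-129598775 on the plus strand. Klrc2 (ENSMUSG00000052736, chr6:129647496-129660689) and Klrc1 (ENSMUSG00000030167, chr6:129666015-129678973) lie on the minus strand, 5325 bases apart. The gap between Klrd1 and Klrc2 is 48720 bases. Klrc3, the next paralogue, lies 4158 bases from Klrc2. Because Klrc1 and Klrc2 are close copies, 3′ tags can fit both: of all 90-base windows in the last 500 bases of the Klrc1 transcripts, 21.7% were also in a Klrc2 transcript, and 6.94% of the Klrc2 windows were in a Klrc1 transcript, against 0% shared with Klrd1. The split of UMIs between Klrc1 and Klrc2 is therefore uncertain, and their sum is used below for the pairing with Klrd1.

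The stretches before the starts of Klrc1 and Klrc2 that hold ACCACA, the core motif bound by RUNX proteins, are shown because the levels of these genes followed each other closely and Runx3, a factor of cytotoxic lymphocytes, was measured in every gate described. The motif was searched on both strands (TGTGGT on the other) from 250 bases before to 50 bases after each start in RefSeq (GRCm38.p6), where 2 of the 3 members have an entry and Klrd1 has none. Capitals mark the motif, each line is 30 bases on the minus strand, and bases are counted back from the start to the motif.
Klrc1, chr6:129679043-129679072, 87 bases before the start: gttgttgttgttACCACAgcactcgtattc
Klrc2, chr6:129660615-129660644, 36 or 76 bases before its alternative starts: ttcaatagaatcACCACAgcatagaacaca
Klrc2, chr6:129660588-129660617, 9 or 49 bases before its alternative starts: acaagtagaattACCACAgagcccagaatt
Both Klrc2 stretches lie inside the outermost limits of the gene in GENCODE M21. The motif was present in 16.8% of all 32851 promoter windows of this length, and 2 or more copies in 1.81%. Klrc3 carries both Klrc2 stretches letter for letter (30 of 30 bases), while the Klrc1 stretch shares 12 and 14 of its 30 bases with them. Klrc3 was at 0.457 CPM in CD94-KO against 0.506 CPM in WT NK cells, and had 0 UMIs in the T, dendritic and macrophage gates, while Klrc2, with the same letters, was at 87.8 and 89.5 CPM. A match is a description of the letters and not of binding. Runx3 was not confined to the gates rich in Klrc1 and Klrc2. Its CD94-KO levels were 577 CPM in NK cells, 394 CPM in monocytes, 359 CPM in macrophages and 321 CPM in CD8 T cells. For WT the same gates stood at 543, 361, 325 and 311 CPM. Monocytes and macrophages had only 0.452 to 3.85 CPM of Klrc1 or Klrc2 over both libraries. A link between Runx3 and these genes was not tested.

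Klrd1 was the most widespread of the 3. In the CD94-KO library it was at 398 CPM in CD8 T cells, 369 CPM in the gate with Cd3 and NK receptors, 334 CPM in NK cells, 266 CPM in pDC, 246 CPM in cDC2, 105 CPM in CD4 T cells, 81.2 CPM in cDC1 and 64.6 CPM in mature DC. In the WT library the order began with NK cells at 697 CPM, the gate with Cd3 and NK receptors at 584 CPM, CD8 T cells at 430 CPM and pDC at 417 CPM, followed by cDC2 at 217 CPM, CD4 T cells at 176 CPM, cDC1 at 88.6 CPM and mature DC at 59.5 CPM. In CD94-KO the intervals of neighbours overlapped from CD8 T cells through to cDC2, between CD4 T cells and cDC1, and between cDC1 and mature DC. In WT they overlapped between CD8 T cells and pDC, between cDC2 and CD4 T cells, and from cDC1 through mature DC to monocytes. At the low end, monocytes had 17.5 CPM in CD94-KO against 38.2 CPM in WT, IL-17-type gamma-delta T cells 7.63 and 17.6 CPM, macrophages 2.99 and 8.88 CPM, and collagen-rich non-immune cells 1.81 and 2.21 CPM. Only 20 CD94-KO and 8 WT cells passed the B cell gate, with 1 and 0 Klrd1 UMIs.

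Among the gated cells, Klrc1 and Klrc2 were found mainly in the lymphocyte gates. Cells in no gate held 36.7% of the Klrc1 UMIs in CD94-KO and 51.4% in WT. For Klrc2 these shares were 48.6% and 56.2%. Klrc1 was highest in CD8 T cells, at 323 CPM in CD94-KO against 252 CPM in WT, followed by the gate with Cd3 and NK receptors at 285 and 244 CPM, CD4 T cells at 217 and 142 CPM in CD94-KO and WT, and NK cells at 190 and 178 CPM, with CD4 T cells below NK cells in WT. Klrc2 was highest in NK cells, at 87.8 CPM in CD94-KO against 89.5 CPM in WT. The plot of all 3 transcripts by gate shows that the dendritic gates stand out on the Klrd1 axis and lie at 0 to 5.30 CPM on the Klrc axes.

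**Figure D1:**
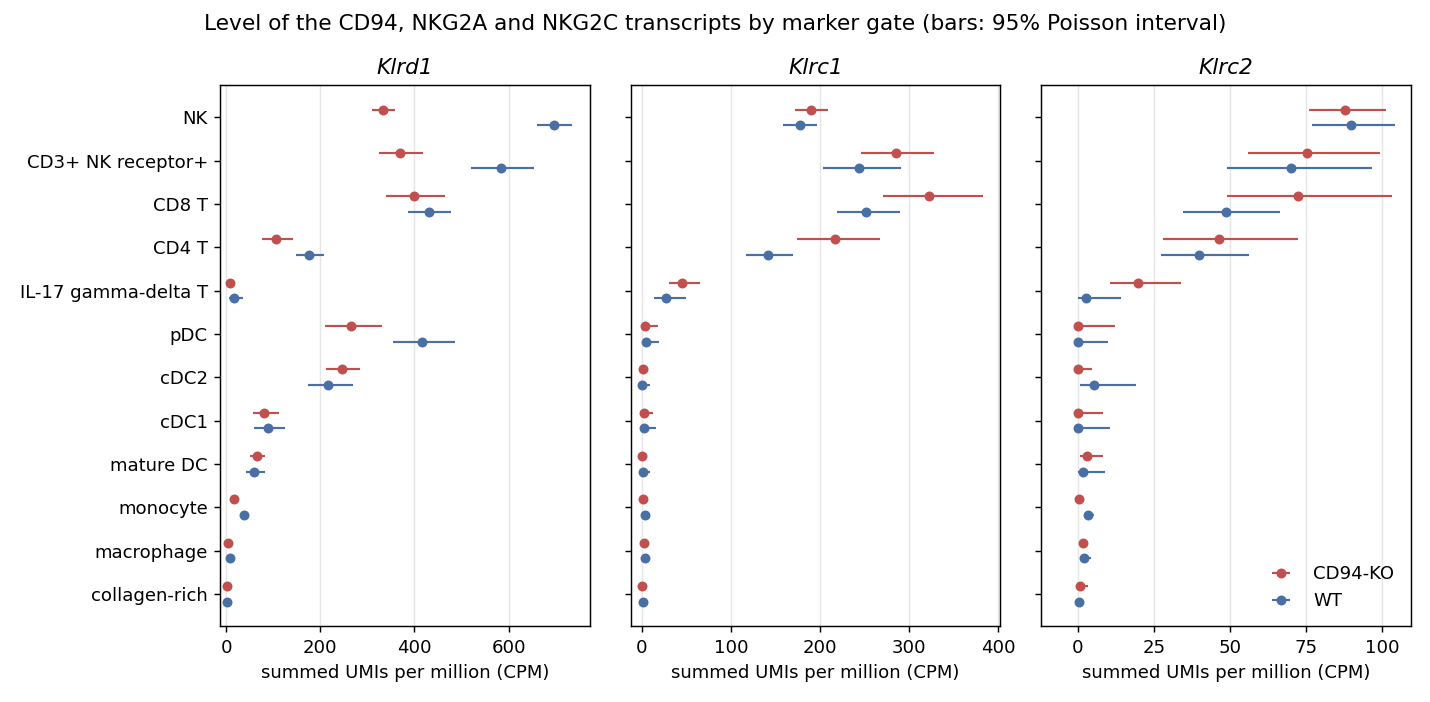
Level of Klrd1, Klrc1 and Klrc2 (x axis, CPM of the gate; bars, 95% Poisson interval) in 12 marker gates (y axis), with CD94-KO drawn above WT in each gate. Klrd1 points of pDC and cDC2 lie between 217 and 417 CPM while their Klrc1 and Klrc2 points lie near 0.

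Klrd1 was lower in the NK cells of the CD94-KO library. It gave 730 UMIs, or 334 CPM [310 to 359], in CD94-KO NK cells and 1378 UMIs, or 697 CPM [661 to 735], in WT NK cells, a ratio of 0.479 [0.437 to 0.524]. Klrd1 was still detected in CD94-KO NK cells. Of the genes with at least 20 UMIs in the NK gate, 4.78% were at least 1.5-fold lower in CD94-KO and 14.6% at least 1.5-fold higher, and Klrd1 was the 1 of the 3 members past this size. Scaling by TMM factors in place of UMI totals, which shifts all NK log2 differences by -0.12, gave 620 lower and 783 higher genes, against 407 lower and 1242 higher with totals, and put Klrd1 at a log2 difference of -1.17 in place of -1.05.

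The difference was spread over the NK cells. Klrd1 was detected in 75.6% [69.9 to 80.6] of the CD94-KO NK cells, whose median depth was 6368 UMIs, and in 93.4% [88.9 to 96.4] of the WT NK cells, with a median of 7788. In macrophages, which are not known to carry the receptor, the share was 2.60% in CD94-KO at a median depth of 11715 UMIs and 10.4% in WT at 13457 UMIs. When each cell was thinned to 1000 UMIs, the expected share of NK cells with Klrd1 was 26.5% [21.3 to 32.2] in CD94-KO, against 46.8% [39.6 to 54.1] in WT, with 1 shallower cell left out in each library. At full depth 38.7% of CD94-KO and 74.5% of WT NK cells had 3 or more Klrd1 UMIs, and the highest single cells had 16 and 36. CD94-KO NK cells with as many Klrd1 UMIs as a typical WT cell were therefore present, though fewer.

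Klrd1 was lower in CD94-KO in each kind of NK cell examined. NK cells with at least 5 UMIs of the granzyme genes Gzmc to Gzmg, a mark of strongly activated killer cells, had 322 CPM in CD94-KO against 737 CPM in WT, a ratio of 0.436 [0.378 to 0.502]. Other NK cells with at least 3 Ifng UMIs had 412 and 598 CPM, a ratio of 0.689 [0.541 to 0.879], and the remaining NK cells 315 and 671 CPM, a ratio of 0.469 [0.406 to 0.542]. The ratio was nearest to 1 in the Ifng-rich cells; the difference between the kinds was not tested. Transcripts of cDC2 were also detected in the NK gate, with Cd209a at 25.2 CPM in CD94-KO against 3.54 CPM in WT, and their part in the Klrd1 level was not tested.

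Among T cells the libraries differed less evenly. The gate with Cd3 and NK receptors, which can hold NKT cells, activated T cells or mixed droplets, had 369 CPM [324 to 418] in CD94-KO, against 584 CPM [520 to 654] in WT (ratio 0.632 [0.532 to 0.751]), where 9.66% of genes were at least 1.5-fold lower. CD8 T cells had 165 UMIs, or 398 CPM [340 to 464], in CD94-KO and 346 UMIs, or 430 CPM [386 to 478], in WT, a ratio of 0.926 [0.764 to 1.12]. The interval of the CD8 T ratio included 1 and lay above that of the NK ratio. CD4 T cells had 105 CPM [76.0 to 141] in CD94-KO, against 176 CPM [148 to 207] in WT, a ratio of 0.598 [0.415 to 0.847], where 10.9% of genes were at least 1.5-fold lower. The CD4 T gate also had less of the cytotoxic granule gene Nkg7 in CD94-KO, at 425 CPM against 1074 CPM in WT, and its part in the Klrd1 difference was not tested.

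**Figure D2:**
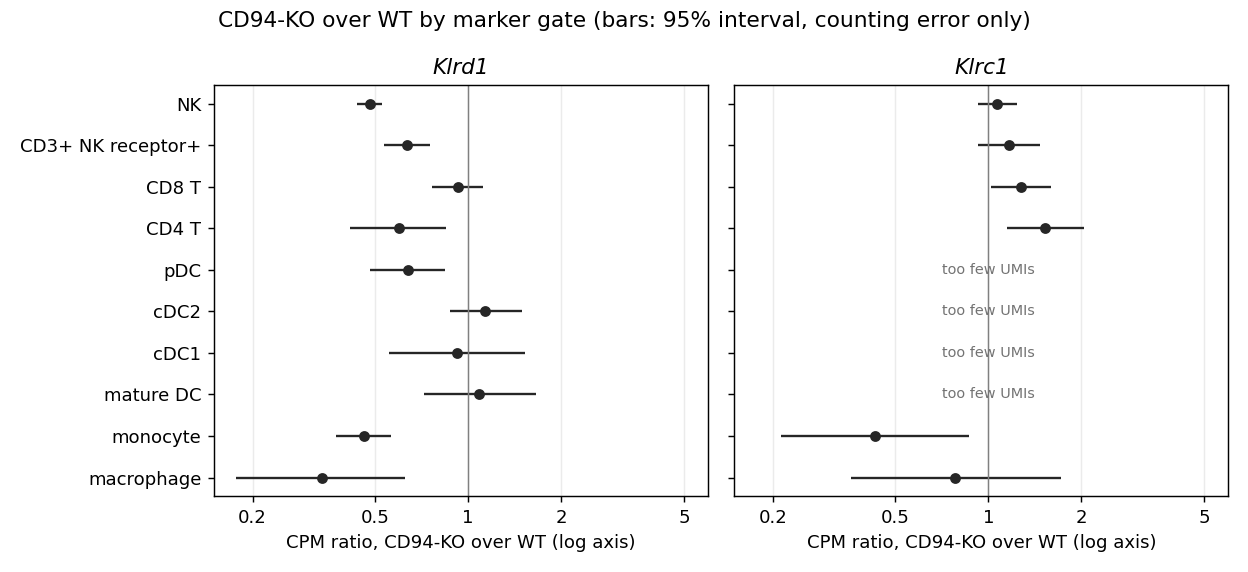
Ratio of the level in CD94-KO to that in WT (x axis, log scale; bars, 95% interval for counting error only) for Klrd1 and Klrc1 in 10 gates (y axis). The NK ratio of Klrd1 lies at 0.479 and that of Klrc1 at 1.07, and no Klrc1 ratio is drawn for the dendritic gates, which had too few UMIs.

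Klrd1 was detected in conventional and plasmacytoid dendritic cells of both genotypes. The cDC2 gate held 191 Klrd1 UMIs in CD94-KO, or 246 CPM [213 to 284], and 82 UMIs in WT, or 217 CPM [173 to 270]. This ratio of 1.13 [0.870 to 1.49] included 1, beside 15.9% of genes at least 1.5-fold higher and 9.46% at least 1.5-fold lower in that gate. Klrd1 was detected in 68.3% [55.3 to 79.4] of CD94-KO, against 63.3% [43.9 to 80.1] of WT cDC2, at median depths of 11077 and 12051 UMIs, which are close to those of the macrophages with their shares of 2.60% and 10.4%. Thinned to 1000 UMIs the expected shares were 19.9% [10.9 to 31.9] in CD94-KO, against 16.3% [5.44 to 34.3] in WT cDC2. In macrophages they were 0.289% in the CD94-KO and 0.784% in the WT library. In the cDC2 gate 24 CD94-KO and 11 WT cells had 3 or more Klrd1 UMIs, and the highest cells had 18 and 14. The 10 cDC2 with the most Klrd1 UMIs held 55.0% of these UMIs in CD94-KO and 84.1% in WT. Dendritic cells with at least 2 Flt3 or Zbtb46 UMIs but no Cd209a were a separate set, added after the data were seen. This set comprised 13 CD94-KO and 10 WT cells at 396 and 174 CPM. The ratio of 2.27 [1.33 to 4.03] rests on 59 UMIs in 7 CD94-KO cells and 19 UMIs in 3 WT cells.

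In pDC, the interferon-producing dendritic cells, Klrd1 was found in nearly every cell: in 89.7% [72.6 to 97.8] of CD94-KO pDC against 91.9% [78.1 to 98.3] of WT pDC, at median depths of 10895 and 10751 UMIs. The level was 266 CPM [211 to 330] from 81 UMIs in CD94-KO and 417 CPM [355 to 487] from 158 UMIs in WT. The ratio was 0.637 [0.481 to 0.838], so Klrd1 was among the 11.8% of genes at least 1.5-fold lower in CD94-KO pDC, while 10.8% were at least 1.5-fold higher. Cells with 3 or more Klrd1 UMIs made up 37.9% of CD94-KO and 56.8% of WT pDC.

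Mature DC, which have taken up the Ccr7 programme for migration to lymph nodes, carried less Klrd1. Their level was 64.6 CPM [50.2 to 81.7] in CD94-KO, against 59.5 CPM [41.9 to 82.1] in WT, a ratio of 1.08 [0.717 to 1.66], where 12.4% of genes were at least 1.5-fold lower. A UMI was found in 28.3% of CD94-KO and 27.0% of WT mature DC, and 3 or more UMIs in 7.08% and 9.52%. The cross-presenting cDC1 had 81.2 CPM [57.2 to 112] in CD94-KO, against 88.6 CPM [60.2 to 126] in WT, from 37 and 31 UMIs. Within both libraries the intervals of pDC and cDC2 lay above those of cDC1 and mature DC.

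Monocytes split by the cDC2 gene Cd209a, which encodes a DC-SIGN relative. Those with a Cd209a UMI had 104 CPM of Klrd1 in CD94-KO (121 UMIs in 100 cells) and 204 CPM in WT (131 UMIs in 55 cells). Those without had 7.84 CPM in CD94-KO against 14.6 CPM in WT. Klrd1 was thus 13.3-fold [9.90 to 17.8] higher with Cd209a in CD94-KO monocytes and 14.0-fold [10.3 to 19.2] higher in WT monocytes, where median depths differed little (10634.5 against 9691 UMIs in CD94-KO, 11395 against 9624 in WT). Between genotypes the monocytes with Cd209a had a Klrd1 ratio of 0.510 [0.395 to 0.658] and those without 0.539 [0.382 to 0.761]. The difference of these ratios from that of cDC2 was not tested. Nkg7, an NK granule gene, was also lower in CD94-KO monocytes, at 6.41 CPM against 25.9 CPM in WT, as was Gzma, at 15.4 against 48.0 CPM. In this gate 5.04% of genes were at least 1.5-fold lower, and 10 of the 18 measured lectin genes of the NK gene complex were, Klrd1, Klrc1 and Klrc2 among them. The part of NK transcripts in the monocyte difference was not tested.

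The defining NK transcripts were near 0 in the dendritic gates. Ncr1 and Klrb1c were at 0 because the gates left out cells that had them, so the 8 other genes of the list of NK transcripts are the ones to read. In cDC2 Nkg7 was at 6.45 CPM in CD94-KO against 7.95 CPM in WT, and Gzma at 18.0 and 5.30 CPM, against 2120 and 2358 CPM of Nkg7 in the NK cells of the CD94-KO and WT libraries. The whole list summed to 195 CPM in CD94-KO against 289 CPM in WT cDC2, and to 154 and 114 CPM in pDC, against 15386 and 13220 CPM in NK cells. Klrk1, which encodes NKG2D, made up 130 CPM in CD94-KO against 175 CPM in WT of the cDC2 sums. In mature DC the sum of 6106 CPM in CD94-KO against 6930 CPM in WT was nearly all the chemokine Ccl5, at 5935 and 6740 CPM. For every 100 Klrd1 UMIs there were 1721 Gzma UMIs in CD94-KO and 724 in WT NK cells, but 7.33 and 2.44 in cDC2 and 9.88 and 3.80 in pDC. The other dendritic gates had more, at 59.5 in CD94-KO and 22.6 in WT cDC1, and 27.5 and 40.5 in mature DC. Macrophages had 950 Gzma UMIs per 100 Klrd1 UMIs in CD94-KO and 200 in WT, from 18 and 30 Klrd1 UMIs.

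Dendritic Klrd1 came with few UMIs of its partner transcripts. Across all 4 dendritic gates there were 378 Klrd1 UMIs and 6 UMIs of Klrc1 and Klrc2 in CD94-KO, and 308 and 7 in WT. This made 1.59 [0.579 to 3.49] partner UMIs per 100 Klrd1 UMIs in CD94-KO and 2.27 [0.906 to 4.74] in WT. NK cells had 83.2 [74.5 to 92.7] in CD94-KO, against 38.3 [34.6 to 42.4] in WT, CD8 T cells 99.4 [79.6 to 124] and 69.9 [59.1 to 82.7], and CD4 T cells 251 [175 to 366] and 104 [81.6 to 131]. In CD94-KO and WT alike, the intervals of these gates and of the dendritic gates were far apart. IL-17-type gamma-delta T cells had 860 [341 to 2782] in CD94-KO, against 171 [62.2 to 514] in WT, from 5 and 7 Klrd1 UMIs. The few UMIs in macrophages had partners in a proportion like that of lymphocytes, at 150 [79.6 to 289] per 100 Klrd1 UMIs in CD94-KO and 66.7 [35.9 to 121] in WT. Monocytes lay between, with 11.9 [7.34 to 18.3] in CD94-KO, against 18.2 [12.3 to 26.2] in WT. The dendritic gates held 11.4% of all Klrd1 UMIs of kept CD94-KO cells and 5.92% of those of WT cells, but 0.212% and 0.229% of the Klrc1 UMIs.

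**Figure D3:**
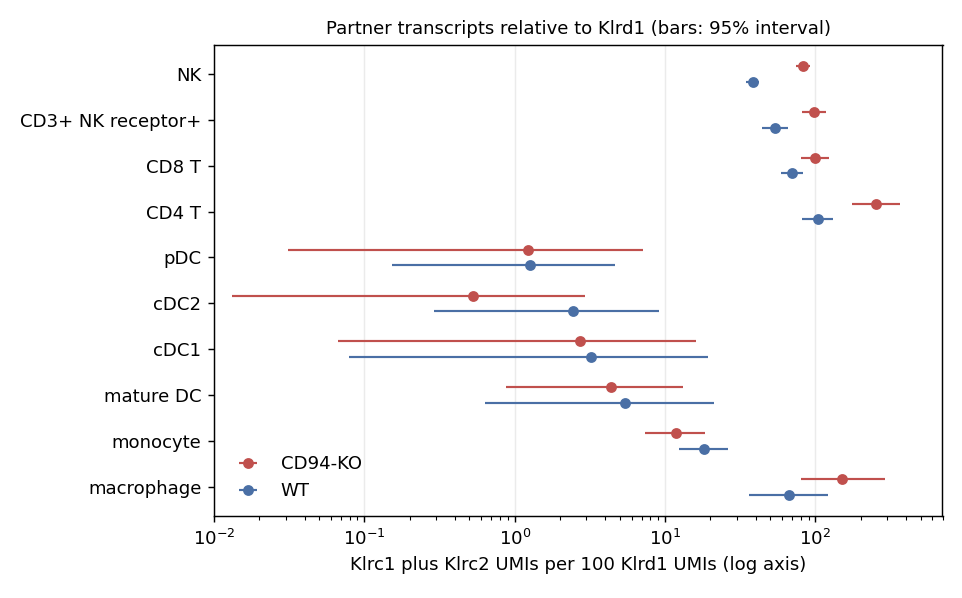
UMIs of Klrc1 plus Klrc2 per 100 Klrd1 UMIs (x axis, log scale; bars, 95% interval) by gate (y axis), with CD94-KO above WT. The NK, CD8 T, CD4 T and Cd3 with NK receptor gates lie between 38.3 and 251, and the dendritic gates between 0.524 and 5.41.

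Klrc1, the inhibitory partner, was near-equal in the NK cells of both libraries. It gave 415 UMIs, or 190 CPM [172 to 209], in CD94-KO NK cells and 351 UMIs, or 178 CPM [159 to 197], in WT NK cells, a ratio of 1.07 [0.925 to 1.24]. The log2 difference was 0.09, and it was -0.03 under TMM scaling and 0.16 without the cells whose barcode was in both libraries. Klrc1 was found in 53.0% of CD94-KO and 45.9% of WT NK cells, against 2.82% and 4.07% of macrophages. Klrc2, the activating partner, gave 87.8 CPM [75.8 to 101] in CD94-KO, against 89.5 CPM [76.8 to 104] in WT NK cells, a ratio of 0.981 [0.796 to 1.21], and was found in 48.9% and 51.5% of cells. Cells with 3 or more UMIs made up 23.7% of CD94-KO and 26.5% of WT NK cells for Klrc1, and 6.02% and 9.18% for Klrc2.

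In CD8 and CD4 T cells the summed level of Klrc1 was higher in CD94-KO, while the shares of cells with it were close. Klrc1 was found in 66.7% of CD94-KO and 64.5% of WT CD8 T cells, and in 29.9% and 30.4% of CD4 T cells. The intervals of the levels and ratios do not cover the spread between cells. CD8 T cells had 323 CPM [271 to 383] in CD94-KO, against 252 CPM [219 to 290] in WT, a ratio of 1.28 [1.02 to 1.60], in a gate where TMM scaling shifts log2 differences by -0.13. CD4 T cells had 217 CPM [174 to 267] in CD94-KO, against 142 CPM [117 to 170] in WT, a ratio of 1.53 [1.15 to 2.04], where 15.4% of genes were at least 1.5-fold higher. In the gate with Cd3 and NK receptors Klrc1 had 285 and 244 CPM, a ratio of 1.17 [0.925 to 1.47]. The Klrc2 ratios in these gates, 1.49 [0.896 to 2.47], 1.16 [0.624 to 2.12] and 1.08 [0.689 to 1.70], included 1. IL-17-type gamma-delta T cells carried Klrc1 with little Klrd1, at 45.8 CPM [30.9 to 65.4] in CD94-KO, against 27.6 CPM [13.8 to 49.4] in WT.

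Within each library, Klrc1 differed between NK cells with and without a UMI of the Ly49 receptor genes. NK cells without a UMI of any Ly49 gene (Klra family, the other large set of MHC class I receptors of mouse NK cells) had 417 CPM of Klrc1 in CD94-KO, against 164 CPM in cells with one, a ratio of 2.54 [1.99 to 3.21] over 28 and 238 cells. In WT the values were 348 and 153 CPM, a ratio of 2.27 [1.76 to 2.91] over 23 and 173 cells. The Klrc2 intervals included 1, with ratios of 0.647 [0.338 to 1.13] in CD94-KO, against 0.942 [0.567 to 1.49] in WT. For Klrd1 the ratios were 1.05 [0.818 to 1.33] in CD94-KO, against 1.28 [1.10 to 1.48] in WT. Depth differed as well. Cells without a Ly49 UMI had a median of 5755.5 UMIs in CD94-KO, against 6385.5 in cells with one. In WT the medians were 11093 and 7422 UMIs.

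CD8 T cells with at least 2 UMIs of the checkpoint receptors Pdcd1, Lag3, Havcr2 and Tigit had 349 CPM of Klrc1 in CD94-KO, against 255 CPM in the others, and 291 CPM in WT, against 136 CPM. The ratio was 1.37 [0.899 to 2.14] in CD94-KO, against 2.15 [1.43 to 3.35] in WT. Klrc2 was at 93.1 CPM in CD94-KO, against 17.6 CPM, and at 59.5 CPM in WT, against 15.1 CPM, the lower values resting on 2 and 3 UMIs. These cells were also deeper, at medians of 10824 against 5448.5 UMIs in CD94-KO and 12071.5 against 6762 UMIs in WT. In CD4 T cells the subunits were low where Foxp3, the regulatory T cell factor, was detected: Klrd1 had 0 UMIs in 19 such CD94-KO cells, where 3 counts would be 25.4 CPM, against 148 CPM in those without, and 63.8 CPM in 39 such WT cells, against 253 CPM. Klrc1 was at 84.7 CPM with Foxp3 in CD94-KO, against 271 CPM without, and at 30.4 CPM in WT, against 219 CPM.

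In single NK cells Klrd1 was usually seen with a partner. At full depth 58.6% [52.5 to 64.6] of CD94-KO, against 67.3% [60.3 to 73.9] of WT NK cells had Klrd1 together with Klrc1 or Klrc2, and 16.9% of CD94-KO and 26.0% of WT NK cells had Klrd1 alone. A partner without Klrd1 was found in 16.2% of CD94-KO NK cells (43 cells) and in 4.59% [2.12 to 8.54] of WT NK cells (9 cells). All 3 transcripts were found in 21.8% of CD94-KO and 23.5% of WT NK cells. CD8 T cells showed a similar make-up, with Klrd1 and a partner in 24 of 45 CD94-KO and 44 of 76 WT cells, Klrd1 alone in 9 and 17, and a partner alone in 8 and 9. CD4 T cells had Klrd1 and a partner in 8 of 67 CD94-KO and 26 of 102 WT cells, Klrd1 alone in 12 and 13, and a partner alone in 12 and 10.

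Dendritic cells with a Klrd1 UMI mostly had it alone. Over all dendritic gates, 52.4% of CD94-KO and 47.6% of WT cells had no Klrd1 UMI. In cDC2 Klrd1 was found alone in 66.7% [53.7 to 78.0] of CD94-KO cells against 60.0% [40.6 to 77.3] of WT cells, and with a partner in 1 cell of each library. In pDC it was alone in 86.2% of CD94-KO and 86.5% of WT cells and with a partner in 3.45% and 5.41%. Over all dendritic gates, 107 of 233 CD94-KO cells and 72 of 147 WT cells had Klrd1 alone, and 4 and 5 cells had it with a partner. No dendritic cell had a UMI of all 3 transcripts, which allows a share of cells with all 3 detected of up to 1.29% in CD94-KO and 2.04% in WT (3 counts). This limits detection at these depths and not expression.

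**Figure D4:**
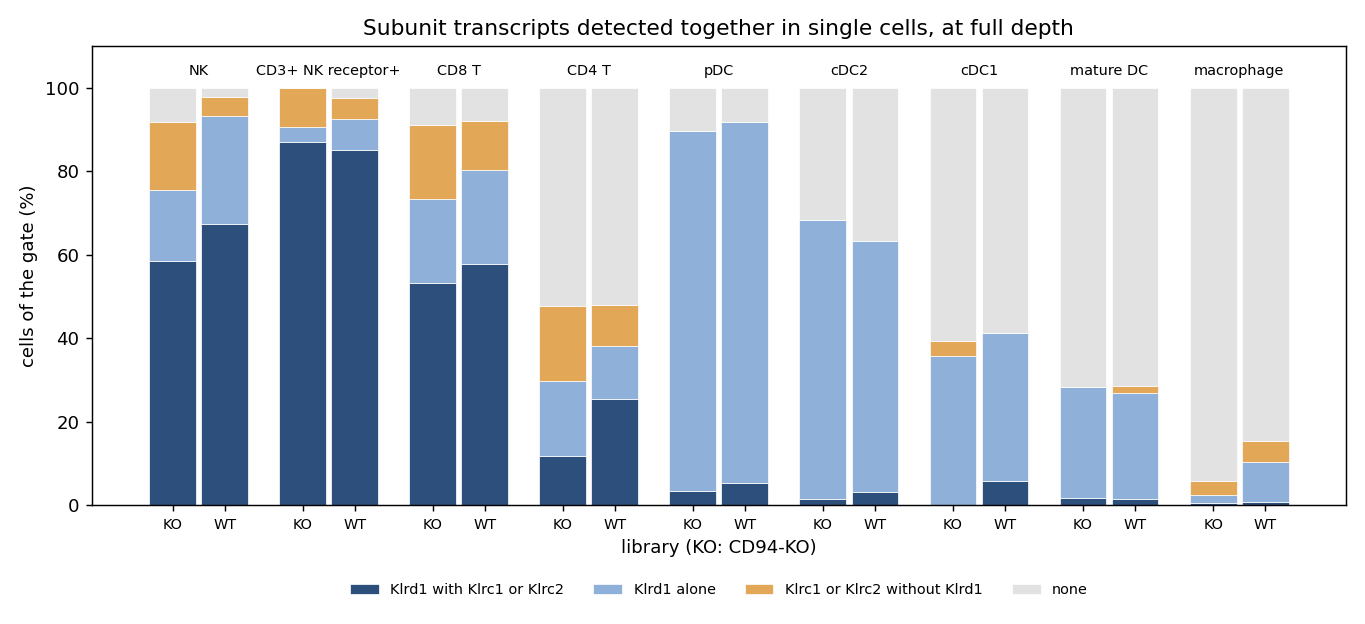
Share of cells (y axis, %) of 9 gates by which subunit transcripts had a UMI at full depth, with the CD94-KO bar left of the WT bar in each gate. The dark segment (Klrd1 with a partner) fills 58.6% and 67.3% of the NK bars and 1.59% and 3.33% of the cDC2 bars.

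Co-detection depended on depth. Co-detection of Klrd1 and Klrc1 in NK cells was 42.1% in CD94-KO and 42.9% in WT at full depth, but 4.94% [2.66 to 8.29] and 6.96% [3.82 to 11.5] in cells thinned to 1000 UMIs. At 2000 UMIs it was 13.4% in CD94-KO and 16.4% in WT. The pairing was therefore read at equal depth, as the share of cells with Klrd1 among cells with and without a partner UMI. At 2000 UMIs this share was 45.7% [36.1 to 55.4] with and 42.7% [34.7 to 51.0] without a partner in CD94-KO NK cells, and 68.9% [56.9 to 79.2] with and 69.2% [60.2 to 77.2] without in WT NK cells. The intervals of each pair overlapped widely, so no pairing was detectable in NK cells at this depth. CD8 T cells had 52.0% [28.1 to 75.2] with and 47.6% [26.8 to 69.1] without a partner in CD94-KO, and 55.3% [35.4 to 74.1] with and 42.8% [28.4 to 58.2] without in WT.

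The CD4 T gate was read in the same way. At full depth Klrd1 was found in 8 of 20 CD94-KO CD4 T cells with a partner and in 12 of 47 without one. In WT CD4 T cells it was found in 26 of 36 with a partner (72.2% [54.8 to 85.8]) and in 13 of 66 without (19.7% [10.9 to 31.3]). The intervals were apart in WT, where cells with a partner were also deeper, at a median of 8995 against 6153.5 UMIs. At 2000 UMIs the shares were 19.7% [4.17 to 47.9] with and 14.0% [5.93 to 26.4] without a partner in CD94-KO, and 39.5% [18.1 to 64.3] with and 14.3% [7.42 to 24.1] without in WT, and both pairs of intervals overlapped. The difference between CD4 T cells and the other gates was not tested.

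The level of each partner was also read by steps of Klrd1. In CD94-KO NK cells Klrc1 was at 201 CPM in the 65 cells without a Klrd1 UMI and at 153, 226 and 190 CPM in cells with 1 to 2, 3 to 5 and 6 or more. In WT NK cells it was at 292 CPM in the 13 cells without Klrd1 and at 171, 138 and 187 CPM in the same steps. The Klrc1 series had no order in either library. The Klrc2 level was lower at each step of more Klrd1, at 112, 99.1, 81.6 and 62.5 CPM in CD94-KO, and at 275, 93.9, 83.1 and 82.2 CPM in WT NK cells. In WT the 275 CPM came from the 13 cells without Klrd1, and the other steps lay close together. No intervals were computed for these steps. The share of cells with Klrc2 had no such order. It was 43.1%, 53.1%, 49.3% and 47.2% in CD94-KO, and 53.8%, 40.5%, 45.8% and 59.8% in WT NK cells. Cells with more Klrd1 UMIs were also deeper, with a median of 11777.5 UMIs in CD94-KO and 12217 in WT NK cells at 6 or more, against 5134 and 4620 without Klrd1. In WT CD8 T cells Klrc1 was higher where Klrd1 was high, at 132 CPM without Klrd1, 86.3 and 245 CPM at 1 to 2 and 3 to 5 UMIs and 378 CPM at 6 or more, while in CD94-KO CD8 T cells the steps were 319, 264, 462 and 285 CPM, in groups of 10 to 12 cells. Klrc1 and Klrc2 showed little pairing with each other at equal depth in NK cells: at 2000 UMIs Klrc1 was found in 28.9% of Klrc2-positive and 28.4% of Klrc2-negative cells in CD94-KO, and in 29.1% and 22.9% in WT. In CD4 T cells at full depth Klrc1 was found in 9 of 9 Klrc2-positive and 11 of 58 Klrc2-negative cells in CD94-KO, and in 9 of 14 and 22 of 88 in WT. Because tags can fit both genes, their co-detection is uncertain.

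**Figure D5:**
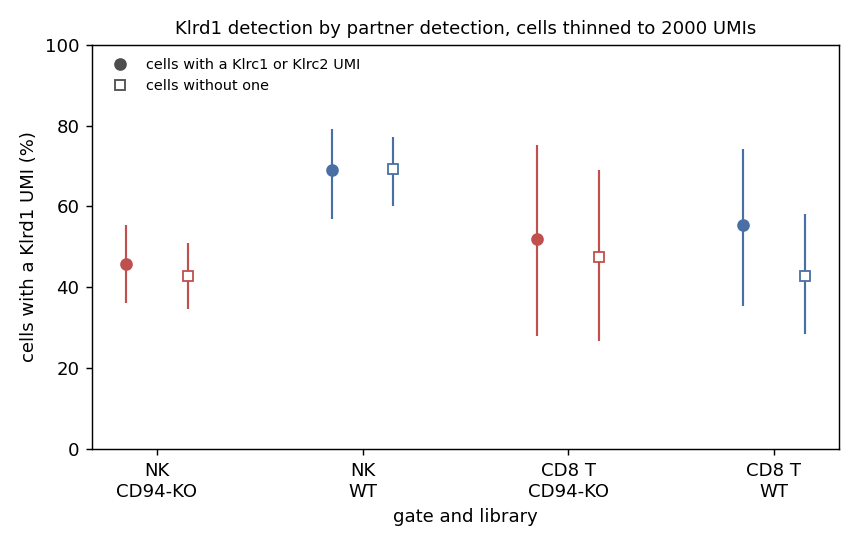
Share of cells with a Klrd1 UMI (y axis, %; bars, 95% interval) among cells with a partner UMI (filled circles) and without one (open squares), thinned to 2000 UMIs, for NK and CD8 T cells (x axis, CD94-KO left of WT). In NK cells the circle and the square lie at 45.7% and 42.7% in CD94-KO and at 68.9% and 69.2% in WT.

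The other genes of the receptor pathway were described by lists chosen with earlier results of these data known. Of 14 measured partners, adaptors and signalling genes, 2 were at least 1.5-fold higher in CD94-KO NK cells (Crk, an adaptor in NKG2A signalling, at 34.3 against 22.8 CPM in WT, and Lcp2, which encodes SLP-76, at 69.5 against 46.0 CPM) and 0 were lower, beside 14.6% of all genes higher and 4.78% lower in that gate, so the count was near the background. The median log2 difference of the list was 0.15, beside 0.11 for all 8515 genes measured in NK cells. The adaptor genes Tyrobp (DAP12) and Hcst (DAP10) were at 2066 and 503 CPM in CD94-KO and at 1961 and 432 CPM in WT NK cells. Of the 10 measured genes of Qa-1 and its peptide supply, 0 passed this size in either direction in NK cells, with a median of 0.06, and H2-T23 was at 215 CPM in CD94-KO against 221 CPM in WT. The ligand gene was higher in pDC, at 952 and 773 CPM, and at 375 and 392 CPM in cDC2.

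Of the 24 measured lectin genes of the NK gene complex, 4 Ly49 genes were higher in CD94-KO NK cells and 1, Klrd1 itself, was lower, both near the shares of 14.6% and 4.78% over all genes. Klra9 was at 253 CPM in CD94-KO against 150 CPM in WT (ratio 1.68 [1.46 to 1.94]), Klra6 at 13.3 and 3.03 CPM, Klra5 at 16.5 and 8.60 CPM and Klra2 at 5.95 and 3.54 CPM. Ly49 genes are close copies, so their counts are uncertain as well. Among 11 transcription factors of cytotoxic lymphocytes, 4 were higher and 0 lower beside the same shares, with a median of 0.43 beside 0.11 for all genes: Tbx21 (T-bet) was at 91.9 CPM in CD94-KO against 60.2 CPM in WT, Tcf7 at 96.1 and 61.7 CPM, Nfil3 at 118 and 76.4 CPM and Prdm1 at 19.7 and 12.6 CPM. Runx3 was at 577 and 543 CPM in NK cells. Of the 10 NK transcripts 0 passed this size, with a median of 0.26, and of 15 measured cDC2 genes 5 were higher and 1 lower in the NK gate, again beside 14.6% and 4.78%, with a median of 0.37.

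In CD8 T cells 2 of 13 partners, adaptors and signalling genes were at least 1.5-fold higher in CD94-KO and 3 lower, beside 15.4% and 10.9% of all genes measured there. Ptpn6, which encodes SHP-1, the phosphatase that NKG2A recruits, was at 159 CPM in CD94-KO against 78.3 CPM in WT, and Ptpn11 (SHP-2) at 65.2 and 19.9 CPM. Tyrobp was at 82.1 and 134 CPM, Fcer1g at 109 and 170 CPM and Syk at 9.65 and 23.6 CPM, the last from 4 and 19 UMIs. The median of the list was -0.14, beside 0.08 for all genes.

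Dendritic cells had the adaptor gene of DAP12 with few UMIs of the NKG2 partners. Tyrobp was at 2219 CPM in CD94-KO against 1824 CPM in WT cDC2 and at 4905 and 4556 CPM in pDC, but at 1251 and 1060 CPM in cDC1 and at 619 and 502 CPM in mature DC. Its level in pDC was thus above that of NK cells in both libraries, and in cDC1 and mature DC below it. Hcst was at 36.1 and 39.8 CPM in cDC2. Runx3 was at 303 and 231 CPM in cDC2 and at 443 and 546 CPM in pDC. Of the 12 measured partners, adaptors and signalling genes in cDC2, 1 was at least 1.5-fold higher (Ptpn11) and 1 lower (Vav1) in CD94-KO, beside 15.9% and 9.46% of all genes, with a median of 0.20 beside 0.04 for all genes. Of 7 measured lectin genes in pDC, Klrk1 was higher, at 68.9 CPM in CD94-KO against 26.4 CPM in WT, and Klrd1 lower, beside 10.8% and 11.8% of all genes there.

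Over 21 points of gate and library with at least 30 cells, Klrc1 and Klrc2 had a Pearson correlation of 0.96 on the log2(CPM + 5) scale, while Klrd1 had 0.61 with Klrc1 and 0.66 with Klrc2. Among 9074 genes, those most like Klrc1 were Gm19585 and Gimap4 (0.99 each), Prkcq, Gzmb and Sytl3 (0.98 each), and those most like Klrc2 were Gm19585, Sidt1 and Prkcq (0.97 each), Nkg7 and Gimap4 (0.96 each). Genes most like Klrd1 were of another kind and less close, among them Atp5h and Padi2 (0.87 each), Otulin (0.86) and Rpl22l1 (0.84). The points share libraries and differ in depth, so these values are descriptions. They also mix both genotypes, between which Klrd1 differed in NK cells, and the part of this in its correlations was not tested. Because 3′ tags can fit both Klrc1 and Klrc2, the correlation between these genes is uncertain as well.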

How the data were processed

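The authors deposited 1 matrix of raw UMI counts per gene and cell barcode for each library, without normalization. Per the file headers, Cell Ranger 5.0.0 produced the counts. Per the labels' protocols, they hold only barcodes that had been called as cells. The submitters' processing notes list build mm10 and Seurat 4.0, with no role, and the annotation behind the counts is not given in the sources used here.

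Barcodes were dropped below 500 UMIs, below 300 genes or from 10% mitochondrial UMIs upwards. The automatic Scrublet threshold (scanpy 1.11.5) marked 0 CD94-KO cells and 1 WT cell and so had not worked, and the 4% with the highest scores were removed, 191 CD94-KO and 183 WT cells. Gates used summed raw UMIs of marker genes, with limits on Cd3, macrophage and NK receptor genes in other gates. Gates, thresholds, members and gene lists were chosen with earlier results of these data known. The NK subsets, the split of monocytes by Cd209a and the splits by Klra, checkpoint and Foxp3 UMIs are descriptions added after the data were seen.

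Counts were summed per gate and library and given as CPM of the gate's total, with log2(CPM + 5) for differences. A gene was counted as higher or lower at a ratio of at least 1.5 among genes with at least 20 UMIs over both libraries. Ratios are not given where a library had few UMIs. Thinning to 1000 or 2000 UMIs was computed as its expectation over all draws of a cell's UMIs, leaving out shallower cells, so counts of thinned cells need not be whole. Named genes were the members, the genes of the lists, and the 5 genes most like each member by Pearson correlation among genes with at least 200 UMIs, of which 1 is not reported here. Of the symbols listed, 98 were found and 3 were not found. Alternatives covered doublets, cell filters, gates, weighting, scaling (edgeR 4.0.16), pseudocount, filter on low counts and thinning depth. Python 3.11.15, numpy 2.4.6 and scipy 1.17.1 were used, and the code was tested on simulated data.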

Additional observations from a re-analysis of the deposited data

How the results depend on the processing

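No paired analysis was possible because there was 1 library per genotype. Of 100 recomputed values, 90 stayed within the limits set for each (1.5 times for a count, the 95% interval for a value) and 0 were marked as reversed. A reversal could be marked only for a log2 difference of at least 1.5-fold in the main analysis, so smaller differences could change sign without this mark. The log2 difference of Klrd1 between CD94-KO and WT NK cells ranged from -1.17 to -0.98 over 9 alternatives, that in pDC from -0.74 to -0.52, in CD8 T cells from -0.27 to -0.06 and in macrophages from -1.31 to -0.7, each over 7. In mature DC it ranged from -0.15 to 0.24, on both sides of 0. Those of Klrc1 and Klrc2 in NK cells, -0.03 to 0.16 and -0.14 to 0.02, did too. In cDC2 it ranged from 0.14 to 1.16, the highest from cells with Flt3 or Zbtb46 but without Cd209a, where the cause was not tested.

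The counts of NK genes past 1.5-fold depended most on the processing: 783 higher and 620 lower with TMM scaling, 399 and 60 with at least 100 UMIs per gene, 3285 and 1875 without a filter on low counts, and 632 lower when each cell weighed the same, against 1242 higher and 407 lower. The filter counts differ because fewer or more genes were measured. Co-detection of Klrd1 and Klrc1 in NK cells thinned to 2000 UMIs was 13.4% in CD94-KO and 16.4% in WT, above the values at 1000 UMIs because more UMIs were drawn. Counts of 45 to 76 CD8 T cells and 29 to 63 pDC and cDC2 per library limit the precision there, and 46.4% of Klrd1 UMIs in CD94-KO and 47.9% in WT lay in cells outside all gates.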

Other observations

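The cells in no gate numbered 2187 in CD94-KO and 2980 in WT, with median depths of 4411 and 1281.5 UMIs. They had Klrd1 at 94.0 CPM [89.4 to 98.8] in CD94-KO, against 137 CPM [132 to 143] in WT. Among the NK cells with at least 3 Ifng UMIs, Klrc1 was at 226 CPM in CD94-KO against 89.4 CPM in WT, a ratio of 2.53 [1.52 to 4.41] from 84 and 19 UMIs, while the granzyme-rich and remaining NK cells had ratios of 0.912 [0.735 to 1.13] and 1.06 [0.843 to 1.35]. The difference between these kinds of NK cell was not tested.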
